A study of Mus musculus with 39 samples.

Results

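Rhpn1, Dkk1 and Lpcat1 are the genes nearest to the strongest H3K4me1 or H3K27ac regions listed only in double-positive (DP) cells. These are cells of naive extra-embryonic endoderm (nEnd) cultures. Both chosen regions at Rhpn1 cover the annotated start of the gene, and so its promoter, while those at Dkk1 and Lpcat1 are intergenic. Rhpn1, Dkk1 and Lpcat1 are 3 of the 21938 protein-coding genes annotated on GRCm38. Their windows, the gene body plus 50 kb on either side, held 147 of the 432096 peaks in the 36 lists. The 3 genes were chosen by H3K4me1 and H3K27ac in the same libraries, so the DP pattern of those marks is given as a description without a test.

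The chromatin of mouse nEnd cultures from an OCT4-mCherry reporter line was profiled by CUT&Tag, a method that tethers a transposase to chromatin through an antibody and so tags the DNA near a histone mark. Cells that had received no treatment were sorted by flow cytometry for OCT4-mCherry and PDGFRA into Oct4+, DP (positive for both) and Pdgfra+ populations, with 3 replicates of each for H3K4me1, H3K27ac, H3K27me3 and H3K9me3. All populations came from 1 reporter line. The study calls its replicates biological, and whether they were separate cultures or separate sorts of a culture is not given in the sources used here. In this culture OCT4 marks cells that resemble the epiblast, PDGFRA marks primitive endoderm, and DP cells express both. H3K27ac peaks near marker genes were compared with the sort. Within 20 kb of the start of Nanog and of Sox2, which are pluripotency genes, peaks were listed in 3 of 3 Oct4+ libraries, 0 of 3 DP and 0 of 3 Pdgfra+, whereas all 6 endoderm markers examined had one in 3 of 3 Pdgfra+ libraries and in 2 or 3 DP libraries. The other pluripotency markers departed from this, since Pou5f1, which encodes OCT4, had a peak in 3 of 3 Oct4+, 1 of 3 DP and 1 of 3 Pdgfra+ libraries and Esrrb had none in any library. The endoderm markers were not absent from Oct4+, where 5 of the 6 had a peak in 1 or 2 libraries and Pdgfra itself had none.

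H3K4me1 marks enhancers, both poised and in use, and H3K27ac marks active enhancers and promoters. H3K27me3 is laid down by Polycomb repressive complex 2 over silent developmental genes, and H3K9me3 marks heterochromatin. DKK1 is a secreted inhibitor of canonical Wnt signalling that binds the LRP co-receptors, and it is known in the early embryo from the anterior visceral endoderm. LPCAT1 is an acyltransferase that turns lysophosphatidylcholine into phosphatidylcholine and is known for its part in making lung surfactant.

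A DP-only region was a stretch of merged peaks with a peak in 3 of 3 DP libraries and in 0 of 6 others. There were 234 such regions among 26496 for H3K4me1 and 10 among 78963 for H3K27ac. Total signal, the fragment coverage summed over the bases of a peak and not scaled to depth, was used to rank them by the mean of the DP libraries. The strongest H3K4me1 region spanned the start of Rhpn1 and the next lay upstream of Lpcat1, while the strongest H3K27ac region lay beyond the 3′ end of Dkk1 and the next covered the start of Rhpn1. For H3K4me1 the last region taken had a mean of 37875 and the first left out, nearest to Fbln5, had 36154. For H3K27ac these values were 22233 and 22050, the latter nearest to Elf4, so the choice at both marks turned on small differences. The order also moved when 1 DP library was left out, an alternative added after seeing the data. Without replicate 2, the H3K4me1 region nearest to Myc ranked 1, that of Rhpn1 ranked 2 and that of Lpcat1 ranked 3, and without replicate 3 the last of these again ranked 3. For H3K27ac, the Dkk1 region ranked 3 without DP replicate 1, and the Rhpn1 region ranked 1 without replicate 1 and 6 without replicate 3.

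The sequences under the maxima of these regions are shown so that the sites can be found and compared. Each covers 300 bases of the forward strand of GRCm38, centred on the maximum of the strongest DP peak, and none overlaps an annotated exon. Capitals mark matches to the motifs searched on both strands: TTCCNGGAA for STAT factors, AGATAAG or TGATAAG for GATA factors, ATGCAAAT for the octamer bound by OCT factors, TGACTCA or TGAGTCA for AP-1, CACGTG for E-box factors and CTTTGAT or CTTTGAA for TCF factors.
Dkk1 H3K27ac region, chr19:30515467-30515766: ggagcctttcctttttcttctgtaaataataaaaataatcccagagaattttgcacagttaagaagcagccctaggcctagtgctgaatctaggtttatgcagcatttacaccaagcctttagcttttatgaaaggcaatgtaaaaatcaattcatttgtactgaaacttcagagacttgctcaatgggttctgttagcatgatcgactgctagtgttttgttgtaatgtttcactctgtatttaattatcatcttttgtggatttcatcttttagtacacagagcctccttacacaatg
Rhpn1 H3K4me1 region, chr15:75699781-75700080: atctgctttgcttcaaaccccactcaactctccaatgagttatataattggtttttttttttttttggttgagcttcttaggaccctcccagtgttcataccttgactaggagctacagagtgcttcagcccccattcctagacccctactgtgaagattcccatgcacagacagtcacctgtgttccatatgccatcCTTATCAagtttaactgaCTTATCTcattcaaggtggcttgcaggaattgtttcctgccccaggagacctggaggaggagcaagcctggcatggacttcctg
Lpcat1 H3K4me1 region, chr13:73458961-73459260: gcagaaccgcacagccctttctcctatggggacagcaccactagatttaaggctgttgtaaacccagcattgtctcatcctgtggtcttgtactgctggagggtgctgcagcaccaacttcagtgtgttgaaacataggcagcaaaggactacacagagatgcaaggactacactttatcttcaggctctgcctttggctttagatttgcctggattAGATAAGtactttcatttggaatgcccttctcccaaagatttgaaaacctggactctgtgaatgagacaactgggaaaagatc

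Both H3K4me1 windows held a GATA match. At Rhpn1 there were 2, CTTATCA and CTTATCT on the forward strand, 48 and 66 bp past the maximum. At Lpcat1 there was 1, AGATAAG, 67 bp past it. Both windows were centred on the maximum of DP replicate 2. The maxima of the 3 DP libraries spread over 0.159 kb at Rhpn1 and over 1.92 kb at Lpcat1. Of all 3268 H3K4me1 regions listed in 3 of 3 DP libraries, 24.5% held a GATA match in such a window. The Dkk1 window, centred on the maximum of DP replicate 1, held none of the searched letters. Its GC content was 36%, against a median of 61.3% over the 2877 H3K27ac regions listed in 3 of 3 DP libraries. Of the 877 of those regions that contained no protein-coding gene start, the median was 51.7%, and 0.114% had a lower GC content than the Dkk1 window. The maxima of DP replicates 2 and 3 lay outside this window, and the whole Dkk1 H3K27ac region had 43.9% GC. The H3K27ac window at Rhpn1, centred on the maximum of DP replicate 3 just before the annotated start, overlapped its first exon. It had 63.0% GC and 24 CpG and is not printed.

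Promoter sequences were taken from RefSeq (GRCm38.p6), which matched Dkk1 and Lpcat1, and the bases before the first annotated start are shown because repressive or active marks lay over them. Rhpn1 had no entry.
Dkk1 promoter, chr19:30549666-30549746, reverse strand: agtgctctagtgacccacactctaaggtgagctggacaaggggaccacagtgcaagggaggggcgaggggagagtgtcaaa
Lpcat1 promoter, chr13:73466981-73467196, forward strand: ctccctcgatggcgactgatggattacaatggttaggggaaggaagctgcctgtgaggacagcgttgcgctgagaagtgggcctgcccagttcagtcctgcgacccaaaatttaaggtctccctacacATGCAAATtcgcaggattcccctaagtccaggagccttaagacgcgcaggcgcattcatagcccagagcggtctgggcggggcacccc
The Lpcat1 promoter held an octamer match, which 1.60% of the 32817 promoters in the RefSeq set share in the 250 bases before the RefSeq start. Over those 250 bases both promoters had a GC content of 60.8%, with 6 CpG at Dkk1 and 16 at Lpcat1, against a median of 52.4% and 6 CpG. Of these bases, the first 81 at Dkk1 and the first 216 at Lpcat1 lie before the annotated start used elsewhere here. The rest, not shown, lie inside the gene. In that inner part Dkk1 held a TCF match, CTTTGAA, at bases 134 to 140, and 7.48% of promoters held one in their 250 bases.

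Rhpn1 (ENSMUSG00000022580.13) lies on chr15:75704280-75715485 on the forward strand. Its start carried H3K27ac in every DP library and in no other library, and H3K4me1 flanked the start on either side in DP. In Oct4+ cells the same start was under H3K27me3 in 2 of 3 libraries. Neither active mark nor H3K27me3 was listed at the start in Pdgfra+ cells.

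The H3K27ac region at Rhpn1 ran over chr15:75703123-75707338. Its total signal in DP was 23260 in replicate 1, 14531 in replicate 2 and 28907 in replicate 3, or 22233 ± 7243 (SD, n = 3). The DP maxima lay within 223 bp of each other, at 0.175, 0.104 and -0.048 kb from the annotated start in replicates 1 to 3. The share of all protein-coding genes with a DP-only H3K27ac region in the window was 0.114%, a pattern that the choice of genes fixed for Rhpn1 and Dkk1.

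The H3K4me1 region at Rhpn1 spanned 12.5 kb, chr15:75697937-75710407. Its total signal in DP was 16275 in replicate 1, 79162 in replicate 2 and 27424 in replicate 3, or 40954 ± 33556 (SD, n = 3). Replicate 2 had a single wide peak, whereas replicates 1 and 3 had separate peaks on either side of the start, so the region was continuous in 1 library of 3. The upstream maxima were at -4.27, -4.35 and -4.19 kb from the start in replicates 1 to 3, and those of the downstream peak were at 5.04 and 4.83 kb in replicates 1 and 3. Replicate 1 also had H3K27ac over the upstream shoulder, with a total signal of 15843. DP-only H3K4me1 regions occurred in the windows of 2.01% of protein-coding genes. Of 25 genes with a DP-only H3K27ac region in the window, 4 also had a DP-only H3K4me1 region, and they were Rhpn1 and 3 of its neighbours, Top1mt, Mafa and Zc3h3, whose windows reach the same pair of regions.

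**Figure D1:**
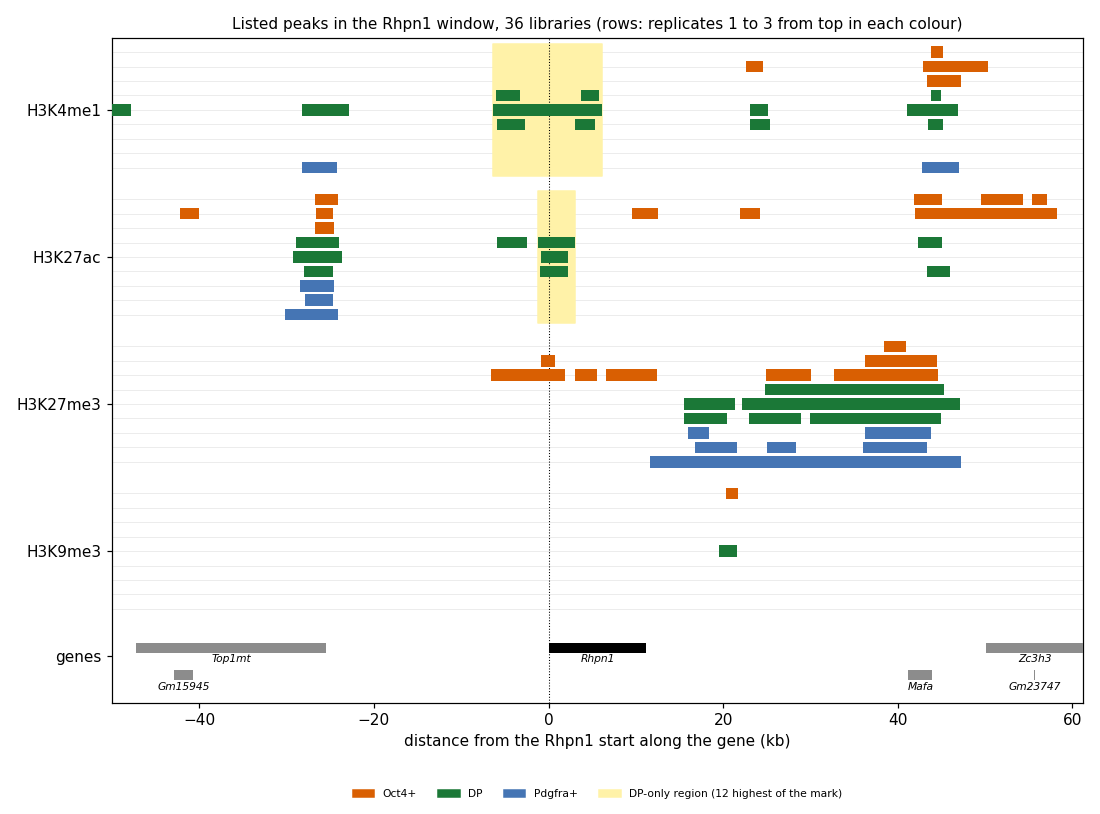
Peaks listed in the window of Rhpn1, by distance from its start along the gene in kb; each row is a library, coloured by population and grouped by mark, and yellow marks the DP-only regions. H3K27ac at the start appears in the 3 DP rows alone, H3K27me3 at the start in 2 Oct4+ rows, and the H3K27me3 domain near Mafa in all 9.

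H3K27me3 at the Rhpn1 start had a total signal of 13338 in Oct4+ replicate 2 and 56741 in Oct4+ replicate 3. It was not listed in Oct4+ replicate 1, in DP or in Pdgfra+. The lowest total signal listed for H3K27me3 was 52608 in DP replicate 1, 16476 in DP replicate 2 and 13383 in DP replicate 3, so that the value of Oct4+ replicate 2 was below all of them and that of Oct4+ replicate 3 above. Farther along, a domain toward Mafa, a transcription factor of pancreatic beta cells, was listed in all 9 libraries, with total signals from 10300 in Oct4+ replicate 1 to 379796 in Pdgfra+ replicate 3. Over the whole Rhpn1 window, H3K27me3 covered 2.24, 8.90 and 30.6% in Oct4+, 18.5, 27.7 and 23.4% in DP and 8.91, 13.8 and 32.0% in Pdgfra+ (replicates 1 to 3). The DP mean was 23.2 ± 4.64% (SD, n = 3), and the groups overlapped (difference from the 6 others 7.14 percentage points, exact two-sided permutation p = 0.333, adjusted p = 0.552 over the 12410 protein-coding genes with any H3K27me3 in the window). Divided by the genome cover of each library, the difference turned to -17.2.

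Among the other genes in the window, Top1mt, the mitochondrial topoisomerase, had H3K27ac at its promoter in all 9 libraries, with total signals from 6641 in Oct4+ replicate 3 to 44922 in Pdgfra+ replicate 3. Thus the DP libraries were not the only ones with acetylation in this window. The Mafa promoter had H3K4me1 in 3 of 3 Oct4+, 3 of 3 DP and 1 of 3 Pdgfra+ libraries and H3K27ac in 2 of 3, 2 of 3 and 0 of 3. H3K9me3 was nearly absent, with 1 peak in Oct4+ replicate 1 and 1 in DP replicate 2, and the test of window cover did not separate DP from the others (DP minus others 0.41 points, exact permutation p = 0.75, adjusted p = 1.0 over 17385 genes).

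Dkk1 (ENSMUSG00000024868.8) lies on chr19:30545863-30549665 on the reverse strand. In DP cells an intergenic region past the end of the gene carried H3K27ac and H3K4me1, while in Oct4+ cells the promoter carried H3K27me3. No H3K27ac peak was listed anywhere in the Dkk1 window in the 3 Oct4+ or the 3 Pdgfra+ libraries.

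The H3K27ac region, chr19:30512860-30518136, was 31.5 kb from the Dkk1 start. Its total signal in DP was 42299 in replicate 1, 17240 in replicate 2 and 25456 in replicate 3, or 28332 ± 12775 (SD, n = 3). The DP maxima were 34.0, 32.9 and 34.8 kb from the start, a spread of 1.89 kb. At the promoter itself H3K27ac was listed in DP replicate 3 alone, with a total signal of 16263.

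H3K4me1 at this distal region was listed in Pdgfra+ as well. Total signal in the merged H3K4me1 region was 19399, 74733 and 40729 in DP replicates 1 to 3 and 41299 in Pdgfra+ replicate 3, and no peak was listed in Oct4+ or in the other Pdgfra+ libraries. A further H3K4me1 region 19.1 kb from the start had the same libraries, with 8594, 31933 and 12680 in DP and 12371 in Pdgfra+ replicate 3. Another, 1.32 kb upstream of the gene, was in 3 of 3 DP libraries and in Oct4+ replicate 2. Pdgfra+ replicates 1 and 2 had the shortest H3K4me1 lists of the series, with 1723 and 1074 peaks against 10620 in replicate 3. Without Pdgfra+ replicate 3, the Dkk1 window would hold 2 DP-only H3K4me1 regions in place of 0, and without Oct4+ replicate 2 it would hold 1.

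**Figure D2:**
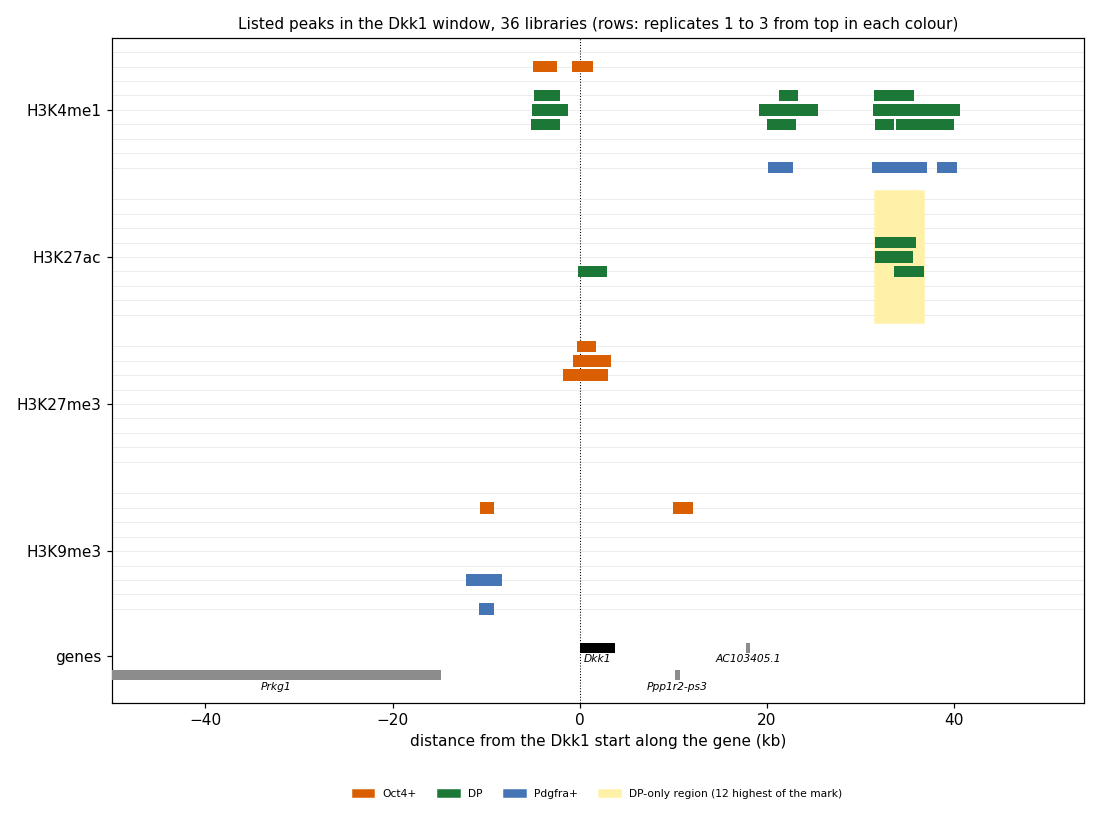
Peaks listed in the window of Dkk1, by distance from its start along the gene in kb; rows, colours and shading as in the map of Rhpn1. The DP rows have H3K27ac 31.5 kb and more from the start, and the 3 Oct4+ rows have H3K27me3 over the start, where no DP or Pdgfra+ row has any.

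H3K27me3 over the Dkk1 promoter had a total signal of 8371, 20479 and 61808 in Oct4+ replicates 1 to 3, and the merged region was chr19:30546370-30551480. Each Oct4+ peak covered the annotated start. No H3K27me3 peak was listed in the window in any of the 6 DP and Pdgfra+ libraries, so the window cover was 1.89, 3.93 and 4.61% in Oct4+ and 0% elsewhere. An Oct4+-only H3K27me3 region was present in the windows of 0.542% of protein-coding genes, and all 3 Oct4+ libraries had more H3K27me3 cover than all 6 others in 0.572% of those with any. The comparison fixed for testing, DP against the 6 others, did not separate the groups (difference -1.74 points, exact two-sided permutation p = 0.321, adjusted p = 0.552), since Pdgfra+ was at 0 as well. The lowest listed total signals were 52608, 16476 and 13383 in DP and 4589, 7977 and 25863 in Pdgfra+ replicates 1 to 3. The Oct4+ replicate 1 value was therefore below the limit of every DP library and of Pdgfra+ replicate 3, and the replicate 2 value below those of DP replicate 1 and Pdgfra+ replicate 3. With equal numbers of peaks, the top 50% of peaks or a common total signal, applied to this count after seeing the data, there was no Oct4+-only H3K27me3 region at Dkk1. Of the 25 genes with a DP-only H3K27ac region in the window, 3 had an Oct4+-only H3K27me3 region: Dkk1, Prkg1, whose window reaches the same regions, and Chn2.

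H3K9me3 in the Dkk1 window was scattered. Peaks were listed in Oct4+ replicate 2, at the pseudogene Ppp1r2-ps3 and upstream of Dkk1, and in Pdgfra+ replicates 1 and 3 upstream of Dkk1. DP had none, and the test did not separate it from the others (difference -1.47 points, exact permutation p = 0.321, adjusted p = 1.0). The gene body of Prkg1, a cGMP-dependent protein kinase, reaches into the window, while its start lies 1220 kb away. The pseudogene AC103405.1 also lies in the window.

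Lpcat1 (ENSMUSG00000021608.15) lies on chr13:73467197-73516422 on the forward strand. It had 2 DP-only H3K4me1 regions, an intergenic one upstream and one in an intron. Within both, each Oct4+ library listed H3K27ac and none listed H3K4me1, while the DP libraries listed no H3K27ac. A domain of H3K27me3 farther upstream was listed in DP alone.

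The upstream region, chr13:73452782-73461161, ended 6.04 kb before the start. Its H3K4me1 total signal in DP was 7347 in replicate 1, 72662 in replicate 2 and 33616 in replicate 3, or 37875 ± 32865 (SD, n = 3). Replicate 1 was thus close to the lowest total signal in its list, 6164. Within the region H3K27ac had 14675, 6052 and 6870 in Oct4+ replicates 1 to 3. The peaks of replicates 1 and 3 overlapped each other and that of replicate 2 lay apart from them, so no single H3K27ac site was in 3 of 3 Oct4+ libraries there. H3K9me3 in Oct4+ had 27507, 31039 and 21499. H3K9me3 was also listed in DP replicate 1, at 7541, and in no Pdgfra+ library.

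The intronic region, chr13:73486907-73495687, had an H3K4me1 total signal of 13250, 53769 and 9229 in DP and ranked 11 of 234. The value of replicate 1 sums separate peaks of 6578 and 6672. An Oct4+-only H3K27ac region of 9.32 kb covered nearly the same bases, with 6108, 28160 and 6728 in replicates 1 to 3, although the peaks of replicates 1 and 3 did not overlap each other and were joined by those of replicate 2. Of the 234 DP-only H3K4me1 regions, 4 (1.71%) had H3K27ac in 3 of 3 Oct4+ and 0 of 3 DP libraries, and these were the regions at Lpcat1, 1 nearest to Kdm4b and 1 nearest to Gfpt1. The share was 3.09% (101 of 3268) among all H3K4me1 regions listed in 3 of 3 DP libraries. An Oct4+-only H3K27ac region was itself common, being in the windows of 16.1% of protein-coding genes. The Oct4+ H3K27ac lists went down to the lowest total signals, 5460 to 6021 against 13683 to 14586 in DP. Of the 6 Oct4+ totals at these regions, 4 were below the DP limits. These signals are not scaled to depth, and a low limit did not always go with a long list. Oct4+ replicate 3 listed 8574 peaks, fewer than DP replicate 1 (10957) and DP replicate 3 (12244).

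**Figure D3:**
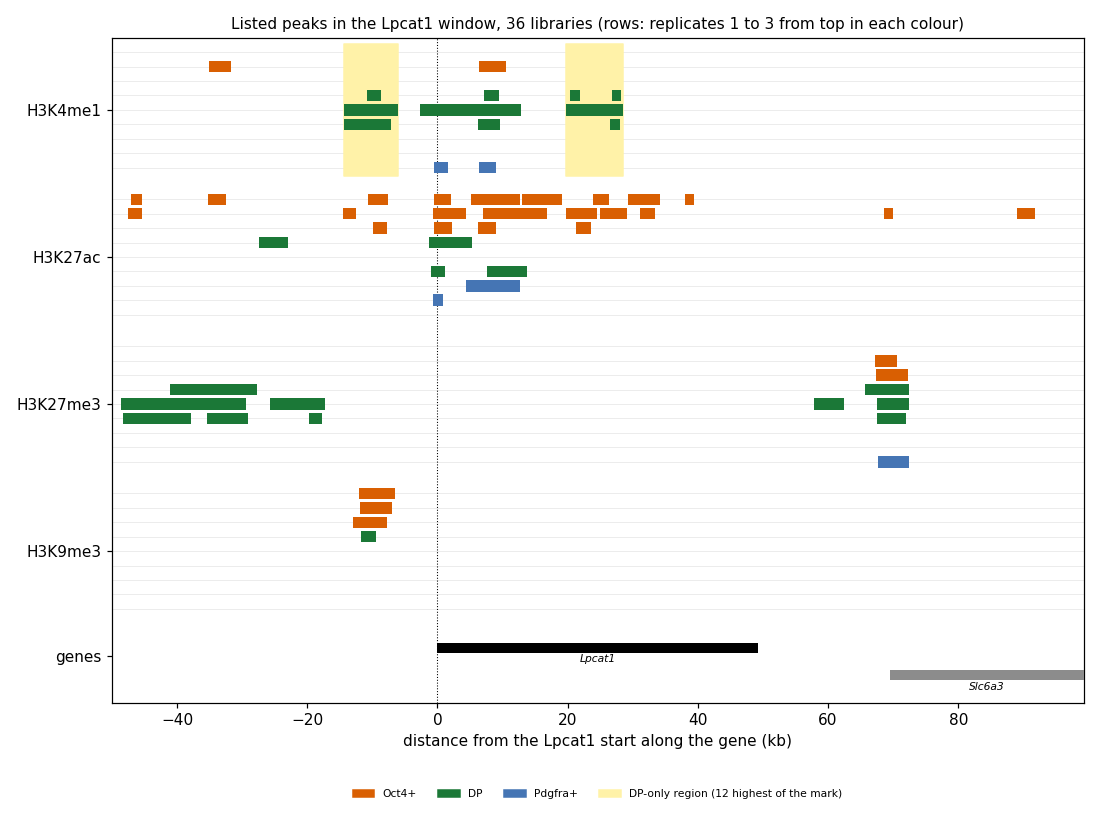
Peaks listed in the window of Lpcat1, by distance from its start along the gene in kb; rows, colours and shading as in the map of Rhpn1. The 2 yellow H3K4me1 regions have DP rows only, with Oct4+ rows of H3K27ac below both and of H3K9me3 below the upstream one, and the 3 DP rows have H3K27me3 farther upstream.

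The Lpcat1 promoter was acetylated in all populations. H3K27ac there had total signals of 17184, 24410 and 11336 in Oct4+, 29577 in DP replicate 1, 18051 in DP replicate 3 and 12618 in Pdgfra+ replicate 2, and no peak was listed in the other libraries. H3K27me3 and H3K9me3 were listed at the Lpcat1 promoter in none of the 9 libraries of either mark. Another H3K4me1 region, over the start and the beginning of the gene, was in 3 of 3 DP libraries, Oct4+ replicate 2 and Pdgfra+ replicate 3.

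The H3K27me3 domain upstream of Lpcat1 covered chr13:73418525-73439535, 27.7 kb before the start, with total signals of 94006, 108633 and 67582 in DP. None of the 6 other libraries listed it. The lowest total signals in their H3K27me3 lists were 4589 to 25863, not scaled to depth, and the part of these limits was not tested. Under alternatives added after seeing the data, the number of DP-only H3K27me3 regions at Lpcat1 depended on the peaks taken. It was 0 with the same number of peaks in every library, 0 with one common total signal and 1 with the top 50% of peaks. H3K27me3 covered 13.5, 24.9 and 15.4% of the window in DP replicates 1 to 3. It covered 2.20 and 3.24% in Oct4+ replicates 2 and 3, 3.23% in Pdgfra+ replicate 3 and 0% in the remaining libraries. The groups did not overlap, and the difference was 16.5 percentage points (DP mean 17.9 ± 6.08, SD, n = 3; exact two-sided permutation p = 0.0119, the smallest that 84 assignments can give). The exact permutation p adjusted over the 12410 genes was 0.193, the smallest adjusted value of any gene. Every gene with the smallest exact p shares this value, so it does not rank Lpcat1 first. All 3 DP libraries were above all 6 others in 7.27% of those genes, and 2.07% of all protein-coding genes had a DP-only H3K27me3 region in the window. With the same number of peaks taken from every library the difference was 4.30 points (exact p = 0.333), and with one common total signal it was 8.27 (exact p = 0.0833). The remaining H3K27me3 in the window lay mainly at the promoter of Slc6a3, the dopamine transporter gene, in 3 of 3 DP, 2 of 3 Oct4+ and 1 of 3 Pdgfra+ libraries.

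H3K9me3 covered 3.76, 3.26 and 3.48% of the Lpcat1 window in Oct4+, 1.47, 0 and 0% in DP and 0% in Pdgfra+, so the Oct4+ libraries did not overlap the others. All 3 Oct4+ libraries were above all 6 others in 7.83% of the 17385 genes with any H3K9me3 in the window. The test fixed for DP against the 6 others gave a difference of -1.26 points (exact permutation p = 0.464, adjusted p = 1.0). H3K9me3 in 3 of 3 Oct4+ libraries was found at 5 of the 234 DP-only H3K4me1 regions (2.14%) and at 83 of the 3268 regions listed in 3 of 3 DP libraries (2.54%).

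**Figure D4:**
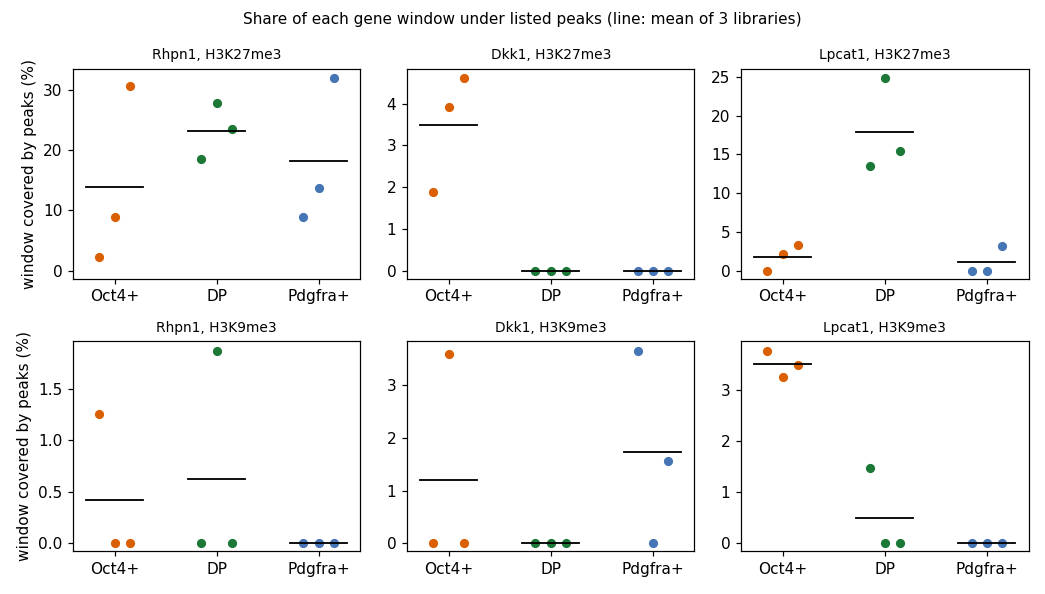
Share of each gene window covered by listed peaks of H3K27me3 (top) and H3K9me3 (bottom), in percent; points are libraries and lines are means of 3. For H3K27me3 at Lpcat1 the DP points, 13.5 to 24.9%, lie above all others, at Dkk1 only Oct4+ points exceed 0, and for H3K9me3 at Lpcat1 the Oct4+ points, 3.26 to 3.76%, lie above all others.

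The limit of the lists differed between libraries, which bears on every absence given here. For H3K27ac the lowest listed total signals were 27115 and 28044 in Pdgfra+ replicates 1 and 3 and 8736 in replicate 2. A peak with the signal that DP replicates 2 and 3 had at Dkk1, or replicates 1 and 2 at Rhpn1, was under the limit of Pdgfra+ replicates 1 and 3. The Oct4+ limits for H3K27ac (5460 to 6021) were below every DP value at both regions. For H3K4me1 the limits were 5344 to 8222 in Oct4+ and 4194 to 8007 in Pdgfra+, and DP replicate 1 had peaks under the highest of these. They were 7347 upstream of Lpcat1, 6578 and 6672 in its intronic region, and 7926 for the downstream peak at Rhpn1. These limits are for single peaks, while the total of a region sums all its peaks in a library. The list sizes of the series ran from 1074 to 65131 peaks, and their part in the DP-only pattern was not tested. With the same number of peaks taken from every library of a mark, the number of DP-only H3K4me1 regions was 1 at Lpcat1 and 0 at Rhpn1, and no H3K27ac region was DP-only at Rhpn1 or Dkk1. With one total signal common to all lists of a mark, there was no DP-only H3K4me1 or H3K27ac region in any of the 3 windows.

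**Figure D5:**
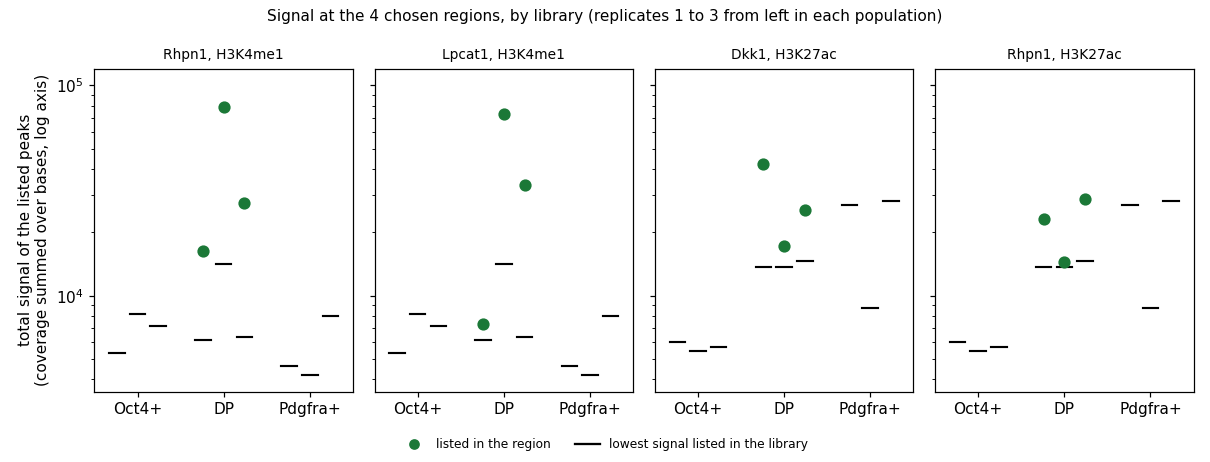
Total signal of the listed peaks in the 4 chosen regions on a log axis, by library, with the lowest signal listed in that library as a black line. A point sums all peaks of its library in the region, while a line is the lowest single peak. Points appear in DP alone, and at Dkk1 and Rhpn1 the H3K27ac lines of Pdgfra+ replicates 1 and 3 (27115 and 28044) stand above several DP points.

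The chosen regions differed in the other marks they carried. H3K4me1 and H3K27ac were both present in DP at Rhpn1 and Dkk1, where the choice of regions fixed H3K27ac at both and H3K4me1 at Rhpn1. The Dkk1 region is not among the 234 DP-only H3K4me1 regions, because Pdgfra+ replicate 3 listed H3K4me1 there. H3K27ac was listed in 0 of 3 DP libraries at 174 of those 234 (74.4%), the Lpcat1 regions among them. The same held at 1026 of all 3268 H3K4me1 regions listed in 3 of 3 DP libraries (31.4%). H3K27me3 in Oct4+ at the gene start was found at Rhpn1 (2 of 3 libraries) and Dkk1 (3 of 3), and at Lpcat1 in 0 of 3. The share of all genes with it at the start was not counted. At the regions themselves, H3K27me3 in 2 or 3 Oct4+ libraries was listed at 10 of the 234 DP-only H3K4me1 regions (4.27%). Among the 3268 H3K4me1 regions listed in 3 of 3 DP libraries it was listed at 134 (4.1%). An H3K4me1 peak anywhere in the window in 3 of 3 DP libraries was found for 26.4% of all protein-coding genes.

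The genes whose pattern over the 36 libraries was most like each member were sought by the Spearman correlation of window cover divided by genome cover. For Rhpn1 these were Usp5 (0.939), Cdca3 (0.936) and Gnb3 (0.928) on chromosome 6, whose windows overlap one another, against a median of -0.0249 over 21047 genes. For Dkk1 they were Egflam (0.722), Tmed6 (0.666) and Mcoln2 (0.666), against a median of -0.0122. For Lpcat1 they were Plagl2 and Pofut1 (0.734 each, with overlapping windows on chromosome 2) and Rfwd3 (0.73), against a median of 0.156. The 36 points share marks and populations and are not independent. None of the 9 genes had a DP-only H3K4me1 or H3K27ac region in the window. Among themselves the members were less alike, at 0.354 for Dkk1 with Rhpn1, 0.302 for Lpcat1 with Rhpn1 and 0.234 for Dkk1 with Lpcat1. Egflam and Mcoln2 shared with Dkk1 an H3K27me3 peak in the window in 3 of 3 Oct4+ libraries and 0 of 6 others, while Tmed6 had none in any library. These genes were picked by the same libraries, so this is a description only. Of all protein-coding genes, 14.5% had an H3K27me3 peak in the window in 3 of 3 Oct4+ libraries, whatever the other populations had. The share that also had none in the 6 others was not counted. An Oct4+-only H3K27me3 region, which is defined by merged peaks and not by the window, was present for 0.542%.

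DP-only regions of related genes were counted against the shares of all protein-coding genes, 2.01% for H3K4me1 and 0.114% for H3K27ac. Of 18 other Wnt inhibitors and their receptors, none had a DP-only region of either mark, and Oct4+-only regions were found at Lrp6, the Wnt co-receptor that DKK1 binds, and at the secreted inhibitor Sfrp5 for H3K4me1 and at Notum, an enzyme that inactivates Wnt proteins, for H3K27ac. Oct4+-only H3K4me1 regions were in the windows of 8.03% of all protein-coding genes, and those of H3K27ac in 16.1%, so 2 of 18 and 1 of 18 are to be read against these shares. Of 14 other genes for lysophospholipid acyltransferases and related enzymes, Mboat2 had a DP-only H3K4me1 region, and Agpat5 (both marks) and Agpat1 (H3K4me1) had Oct4+-only regions. No gene of these 2 lists had a Pdgfra+-only region, which was rare in the series as a whole (H3K4me1, 0.182% of protein-coding genes; H3K27ac, 0.0%).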

How the data were processed

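CUT&Tag fragments were sequenced in pairs, and the authors called peaks with SEACR in its stringent mode against IgG, 1 list per library. Submitters' notes name bcl2fastq 2.19.1, Bowtie2, SAMtools 1.12, bedtools 2.26.0 and mm10. The deposited lists give total and maximum signal (fragment coverage), whole numbers not scaled to depth; sequencing depth is unknown, and list length and lowest listed signal stand in for it. The 3 IgG samples among the 39 were not analysed here. Genes came from GENCODE vM21 on GRCm38 (mm10).

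The members and lists were chosen with earlier results of these data known. Named were the members, genes in their windows, the 3 genes most like each, and list genes with a region listed in 1 population (1 further gene list is not reported here). Peaks of a mark sharing at least 1 bp were merged. Promoters ran from 1 kb before to 100 bp after the start. Positions of maxima are midpoints of the interval of maximum signal. DP was set against the 6 other libraries for H3K27me3 and H3K9me3 cover in an exact, two-sided permutation test with Benjamini-Hochberg adjustment over all genes of the mark; adjustment over the 6 tests, also planned, is not given because the genes were chosen. Likeness used Spearman correlations. Code was tested on simulated data. Python 3.11.15, NumPy 2.4.6, pandas 2.3.3 and Matplotlib 3.10.9 were used.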

Additional observations from a re-analysis of the deposited data

How the results depend on the processing

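Calls of cover use an unadjusted exact p of 0.05. The higher H3K27me3 cover at Lpcat1 in DP was past it in all but 2 settings: 4.30 percentage points with the same number of peaks in every library and 8.27 with one common total signal. Leaving out 1 library at a time gave 13.0 to 18.7 points there, 4.38 to 10.3 at Rhpn1 and -2.09 to -1.16 at Dkk1, and for H3K9me3 -1.75 to -0.86 at Lpcat1, -0.21 to 0.72 at Rhpn1 (the direction turned without DP replicate 2) and -1.76 to -1.03 at Dkk1. Divided by genome cover, H3K27me3 at Rhpn1 reversed to -17.2. In 5 cases no peak was left in any library and no value could be given. Replicate numbers were not taken to pair the libraries, since same-numbered deviations from the population mean did not all correlate above 0.1: for H3K27me3 the correlations were 0.466 to 0.725 between Oct4+ and Pdgfra+ but -0.611 to 0.0118 between DP and either, and for H3K9me3 -0.499 to 0.31 in all. The replicate block changed no call (16.5 points at Lpcat1, exact p = 0.037).

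The number of DP-only regions depended on which peaks were taken. With the same number of peaks in every library there were 0 H3K4me1 regions at Rhpn1, 1 at Lpcat1, and 0 H3K27ac regions at Rhpn1 and Dkk1. With the top 50% of peaks there were 2 H3K4me1 regions at Rhpn1 and 0 at Lpcat1, and 0 for H3K27ac at Rhpn1 and Dkk1. With a common total signal all 4 counts were 0. Asking each library to cover 50% of the region left 0 H3K4me1 regions at Rhpn1 and Lpcat1, and a window of 20 kb left 0 H3K27ac regions at Dkk1. Leaving out a library gave 1 to 2 H3K4me1 regions at Rhpn1 (2 without DP replicate 2 or without Pdgfra+ replicate 3) and 0 to 2 at Dkk1. Of alternatives added after seeing the data, equal numbers of peaks and a common total signal gave 0 Oct4+-only H3K27me3 regions at Dkk1, 0 DP-only ones at Lpcat1 and 0 Oct4+-only H3K27ac ones at Lpcat1, and the top 50% of peaks gave 0, 1 and 0. The cause was not tested.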
